A study of Mus musculus with 6 samples.

Results

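The extracellular matrix that fibroblasts lay down holds, besides collagens, a set of glycoproteins, proteoglycans and laminins. A list of 52 mouse genes of this kind was followed here, of the 51912 genes in a table of transcript levels. The list was set by gene name, with earlier results of these data known, and all 52 names were found in the table. They were grouped by role into 14 elastic fibre genes, 7 small leucine-rich proteoglycans, 4 genes of hyaluronan and large proteoglycans, 9 basement membrane genes, 13 matricellular genes and 5 adhesive and other glycoproteins. The libraries came from primary fibroblasts of mice aged 6 weeks. One group had been given CXCL3 for 48 h and the other was a control, with 3 libraries each. CXCL3 is a chemokine that draws in neutrophils through the receptor CXCR2. The labels name no organ, strain, genotype, vehicle or dose, and do not say whether replicates were separate cultures or animals, so p-values measure the spread between these libraries, which may be technical. Levels are in TPM, a share of all transcripts that is corrected for transcript length and so can be compared between genes. TPM does not retain read numbers, so sequencing depth is unknown and counting intervals are not given.

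Fibronectin is assembled at the cell surface into fibrils on which other matrix proteins are laid down. Elastic fibres have a core of elastin on a scaffold of fibrillin microfibrils, to which fibulins, microfibril-associated proteins and emilins bind. Small leucine-rich proteoglycans bind collagen fibrils and steer their width, versican binds hyaluronan, and laminins, nidogens and perlecan make up basement membranes. Matricellular proteins such as SPARC, periostin, tenascin C and the thrombospondins act mainly on cell adhesion and signalling rather than as structural parts.

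The cultures showed all 7 fibroblast markers listed, with Col1a1 at 567 to 633 TPM in CXCL3 libraries and 581 to 973 TPM in controls. Vim was at 1671 to 1709 TPM in CXCL3 libraries and 1395 to 1650 TPM in controls, with all CXCL3 libraries above all controls. All 8 macrophage markers were present too, with a summed level of 14419 to 14502 TPM in CXCL3 libraries and 14477 to 17500 TPM in controls, of which Lyz2 was the largest part. Single macrophage markers differed in both directions, and none passed the adjusted test described below. Lyz2 averaged 13190 ± 65.7 TPM with CXCL3 and 14620 ± 1460 TPM in controls, and C1qb 223.7 ± 3.79 and 300.4 ± 36.5 TPM, with all CXCL3 libraries below all controls for both. Mrc1 averaged 16.98 ± 1.02 TPM with CXCL3 and 11.5 ± 1.80 TPM in controls, with all CXCL3 libraries above all controls. The part of these markers in the matrix gene values was not tested, and in RNA of whole cultures fewer cells of a type cannot be told from less RNA per cell. The smooth muscle markers Des, Cnn1 and Smtn and the mesothelial marker Wt1 were detected. The summed smooth muscle markers were at 118.9 to 127.4 TPM in CXCL3 libraries and 128.7 to 169.7 TPM in controls, most of it Cnn1, which averaged 83.55 ± 6.48 TPM with CXCL3 and 108 ± 16.6 TPM in controls. Cnn1 and Des were lower in every CXCL3 library than in every control, and their part in the matrix gene values was not tested. The defining smooth muscle marker Myh11 was at or below 1 TPM in all 6 libraries and the mesothelial marker Msln stayed below 1 TPM, and summed levels of pericyte, endothelial, epithelial, Schwann cell and T and B cell markers were at most 3.8 TPM. The controls varied more than the CXCL3 libraries: the median SD of log2(TPM + 1) over the 35 matrix genes tested was 0.093 in CXCL3 libraries and 0.204 in controls, against 0.086 and 0.203 over all genes tested.

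The cultures made a matrix transcript pool dominated by few genes. The 52 genes together held 1.36% of all TPM on average. Fbln2, the gene of the microfibril-binding fibulin 2, was the highest with 30.3% of their sum, and Fn1 (fibronectin), Sparc, Bgn (biglycan) and Thbs1 (thrombospondin 1) followed. The summed level was 13634, 13633 and 12834 TPM in CXCL3 libraries 1, 2 and 3, and 15624, 11471 and 13168 TPM in controls 1, 2 and 3, so the CXCL3 values lay inside the range of the controls. At the other end, 15 of the 52 genes were below 1 TPM in every library, and Smoc2 and Spon1 passed 1 TPM in control 1 only. The 15 include the genes of elastin (Eln), lumican (Lum), osteoglycin (Ogn), asporin (Aspn), fibromodulin (Fmod), Prelp, tenascin XB (Tnxb), Mfap4 and matrix Gla protein (Mgp).

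**Figure D1:**
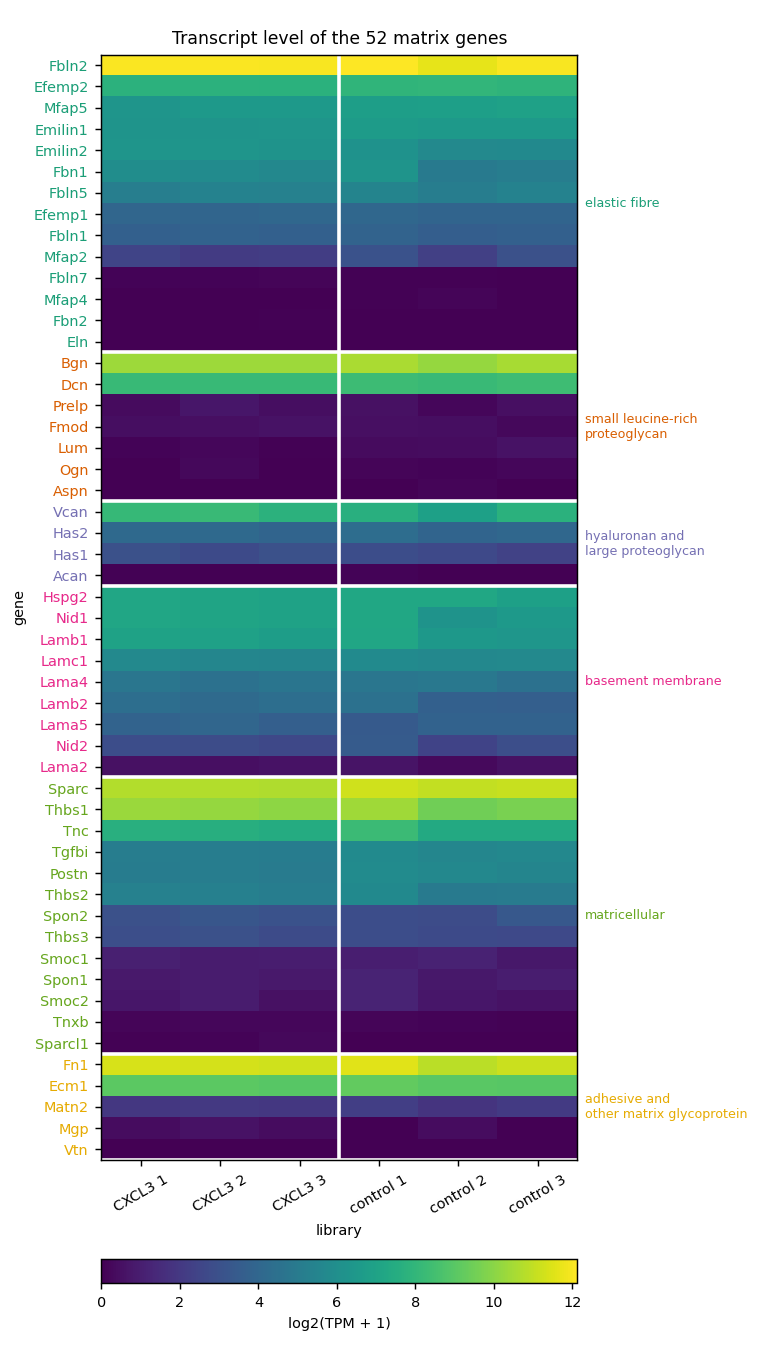
Transcript level of the 52 genes, log2(TPM + 1) by colour, with genes in rows by class and mean level and the 3 CXCL3 libraries to the left of the 3 controls. Each class is carried by a few bright rows, and 15 genes stay below 1 TPM in all 6 libraries.

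Levels were compared with limma on log2(TPM + 1) over all 13139 genes with at least 1 TPM in at least 3 libraries. Of the 52 matrix genes 35 passed this filter, and 34 of them had at least 1 TPM in all 6 libraries, the exception being Smoc1. No matrix gene passed a Benjamini-Hochberg adjusted p of 0.05, against 0.16% of all genes tested. At an unadjusted p under 0.05, 8 of the 35 were lower with CXCL3 and 2 were higher, which is 22.9% and 5.71%, against 5.65% and 5.93% of all genes tested. The 8 are Tgfbi, Sparc, Postn, Mfap5, Emilin1, Efemp2, Dcn and Mfap2, and the 2 are Vcan and Emilin2. In 7 of the 35 all 3 CXCL3 libraries lay below all 3 controls (20%, against 9.31% of all genes) and in 2 above them (5.71%, against 7.92%). The fold change was negative in 19 of the 35 (54.3%, against 37.7% of all genes), and its median was -0.01 on the log2 scale, against 0.07 over all genes. These shares describe a chosen list and carry no test.

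**Figure D2:**
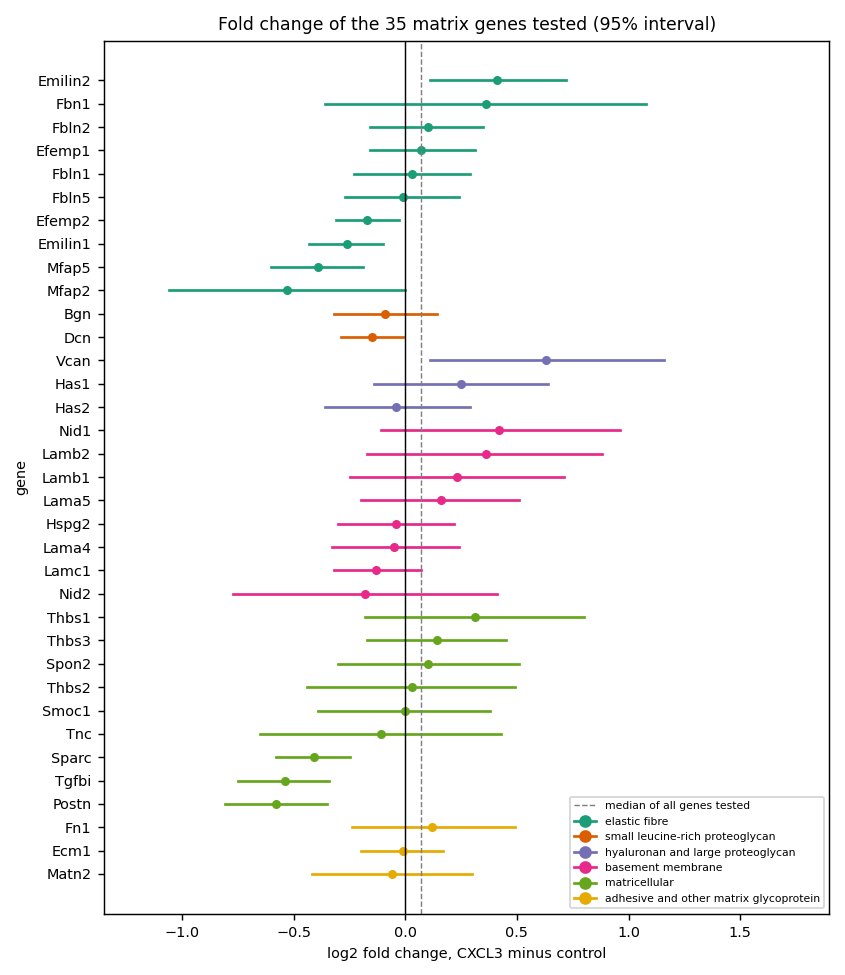
Log2 fold change, CXCL3 minus control, of the 35 matrix genes tested, as points with 95% intervals from limma, coloured by class, with a dashed line at the median of all genes (0.07). Tgfbi, Sparc and Postn lie farthest below 0 for the width of their intervals, and Vcan is the highest point at 0.63.

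The matricellular genes Tgfbi, Sparc and Postn had the smallest p-values of the list. Tgfbi encodes the transforming growth factor beta-induced protein, which links collagens to integrins. It was at 34.3, 34.4 and 33.1 TPM in CXCL3 libraries 1, 2 and 3, and at 54.4, 45.7 and 50.03 TPM in controls 1, 2 and 3. The highest CXCL3 value is below the lowest control value, and the log2 fold change was -0.54 ± 0.09 (SE; limma, adjusted p = 0.110). Sparc encodes a collagen-binding glycoprotein also known as osteonectin. It was at 1683, 1682 and 1650 TPM in CXCL3 libraries, and at 2414, 2092 and 2175 TPM in controls, with a log2 fold change of -0.41 ± 0.07 (limma, adjusted p = 0.117). Postn, the gene of periostin, was at 33.3, 33.9 and 32.5 TPM in CXCL3 libraries, and at 56.3, 50.2 and 44.6 TPM in controls, with a log2 fold change of -0.58 ± 0.10 (limma, adjusted p = 0.117). In all 3 genes the groups did not overlap, and the CXCL3 libraries were nearly level with each other while the controls spread. The markers C1qb, Lyz2, Cnn1 and Des were also lower in every CXCL3 library than in every control, as were 9.31% of all genes tested. Their log2 fold changes were -0.42, -0.14, -0.36 and -0.10 (limma, adjusted p = 0.206, 0.493, 0.349 and 0.643). Of the other macrophage and smooth muscle markers tested, Mrc1, Itgam, Ptprc, Csf1r, Adgre1 and Smtn had positive log2 fold changes (0.53, 0.30, 0.20, 0.10, 0.05 and 0.29). Cd68 was at -0.05, and Mrc1 was higher in every CXCL3 library than in every control. Of the fibroblast markers, Col1a1, Col1a2, Thy1 and Pdpn had negative log2 fold changes (-0.22, -0.24, -0.28 and -0.05). Pdgfra, Vim and Pdgfrb had positive ones (0.18, 0.12 and 0.03), and no fibroblast marker passed (limma, adjusted p from 0.494 to 0.942).

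The stretch of 100 bases before the transcription start is shown for Tgfbi, Sparc and Postn and, for contrast, for Vcan, the member with the largest positive fold change. RefSeq's table for GRCm38.p6 held a promoter for 33 of the 52 genes. Each line reads 5′ to 3′ along the gene's own strand, and capitals mark a TATA box (TATAAA) or a GC box (GGGCGG) read on either strand, which share no bases here.
Tgfbi, chr13:56609486-56609585, plus strand: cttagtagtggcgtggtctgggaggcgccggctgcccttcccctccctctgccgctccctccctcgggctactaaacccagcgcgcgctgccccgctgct
Sparc, chr11:55420081-55420180, minus strand: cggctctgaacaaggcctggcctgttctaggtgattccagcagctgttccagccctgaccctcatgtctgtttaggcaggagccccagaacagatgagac
Postn, chr3:54361007-54361106, plus strand: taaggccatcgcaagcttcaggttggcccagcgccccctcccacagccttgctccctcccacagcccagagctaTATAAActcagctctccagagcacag
Vcan, chr13:89742513-89742612, minus strand: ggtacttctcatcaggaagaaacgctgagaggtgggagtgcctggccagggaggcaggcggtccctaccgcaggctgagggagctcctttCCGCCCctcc
Among these 4, the TATA box letters stand only before Postn and the GC box letters only before Vcan. Over the 24 tested matrix genes with a promoter in the table, 2 held the TATA box letters in this window (8.33%, against 5.56% of all 32851 starts) and 12 the GC box letters (50.0%, against 24.7%). For the 24 genes, all past the TPM filter, only the start nearest the annotated gene start was used. The 32851 starts were limited neither to tested genes nor to such a start, so the shares are of unlike sets. The part of this in the difference was not tested. A match is a run of letters and not a measured site.

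Of the other matricellular genes, Thbs1, Thbs2 and Tnc varied more among the controls than among the CXCL3 libraries. Thbs1, the gene of the adhesion-modulating glycoprotein thrombospondin 1, was at 1241, 1171 and 1069 TPM in CXCL3 libraries 1, 2 and 3, and at 1349, 725 and 832 TPM in controls 1, 2 and 3. The CXCL3 values lay between control 1 and the other two controls, and the log2 fold change was 0.31 ± 0.21 (limma, adjusted p = 0.508). Tnc, the gene of tenascin C, averaged 189 ± 12.5 TPM with CXCL3 and 213 ± 84.1 TPM in controls (SD, n = 3 each), where control 1 alone stood at 310 TPM. Thbs2 averaged 37.6 ± 2.64 TPM with CXCL3 and 38.0 ± 12.3 TPM in controls, Thbs3 6.48 ± 0.54 and 5.78 ± 0.50 TPM, and the spondin gene Spon2 7.61 ± 0.80 and 7.11 ± 1.67 TPM. Smoc1, of a secreted calcium-binding protein of basement membranes, was at 0.70 to 1.24 TPM over all 6 libraries. Sparcl1, a relative of Sparc, was at most 0.18 TPM and Tnxb at most 0.17 TPM. Thbs3 overlaps Mtx1 on the opposite strand (mean 80.9 TPM).

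Among elastic fibre genes, transcripts of the microfibril scaffold were found and those of elastin were near 0. Eln, the gene of elastin, was listed at 0 TPM in 5 libraries and at 0.02 TPM in CXCL3 library 2. Fbn1, the gene of fibrillin 1, was at 60.3, 57.3 and 50.1 TPM in CXCL3 libraries, and at 76.5, 30.5 and 34.4 TPM in controls, with a log2 fold change of 0.36 ± 0.31 (limma, adjusted p = 0.578). Control 1 was the highest of the 6 libraries and controls 2 and 3 the lowest. The second fibrillin gene Fbn2 stayed at or below 0.04 TPM. The microfibril-associated glycoprotein gene Mfap5 was at 79.0, 93.4 and 90.03 TPM in CXCL3 libraries, and at 109.8, 111.9 and 123 TPM in controls (log2 fold change -0.39 ± 0.09; limma, adjusted p = 0.204). Its relative Mfap2 averaged 3.81 ± 0.66 TPM with CXCL3 and 6.08 ± 1.83 TPM in controls, with overlapping groups.

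Emilin1 and Emilin2, which encode related glycoproteins of elastic fibres and the cell surface, differed in opposite directions. Emilin1 was at 75.6, 77.2 and 79.1 TPM in CXCL3 libraries, and at 98.95, 91.1 and 89.3 TPM in controls (log2 fold change -0.26 ± 0.07; limma, adjusted p = 0.270). Emilin2 was at 79.3, 78.5 and 74.04 TPM in CXCL3 libraries, and at 71.6, 50.97 and 52.7 TPM in controls (0.41 ± 0.13; adjusted p = 0.336). The groups did not overlap for either gene, and neither passed. Emilin2 overlaps Gm26561 on the opposite strand, a long intergenic RNA gene listed at a mean of 4082 TPM, and since strand use in counting was not given, the split of reads between them is uncertain. Of the fibulins, Fbln2 was at 4209, 4276 and 4046 TPM in CXCL3 libraries and 4451, 3311 and 4039 TPM in controls, with overlapping groups. Efemp2, the gene of fibulin 4, which is needed for elastic fibre assembly, averaged 217 ± 3.79 TPM with CXCL3 and 244 ± 9.30 TPM in controls (-0.17 ± 0.06; adjusted p = 0.376). Fbln5, Efemp1 and Fbln1 averaged 38.6 ± 2.38, 15.2 ± 0.49 and 12.4 ± 0.36 TPM with CXCL3, and 39.1 ± 4.84, 14.4 ± 0.79 and 12.2 ± 1.14 TPM in controls. Fbln7 and Mfap4 stayed below 0.15 TPM.

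Of the small leucine-rich proteoglycans only Bgn and Dcn were expressed above 1 TPM. Dcn, the gene of decorin, which binds collagen fibrils, was at 283, 288 and 284 TPM in CXCL3 libraries, and at 321, 299.95 and 328 TPM in controls (log2 fold change -0.15 ± 0.06; limma, adjusted p = 0.422). The groups did not overlap. Bgn was at 1287, 1315 and 1304 TPM in CXCL3 libraries, and at 1532, 1189 and 1464 TPM in controls (-0.09 ± 0.10; adjusted p = 0.653), with control 2 below all CXCL3 libraries. Some genes of this family are neighbours on the chromosomes. Dcn on chromosome 10 (97479609 to 97518143, GRCm38) lies 47.0 kb from Lum, which was at 0.06 to 0.15 TPM in CXCL3 libraries and 0.30 to 0.50 TPM in controls. Aspn and Ogn on chromosome 13 lie 40.5 kb apart and Prelp and Fmod on chromosome 1 lie 116 kb apart, and these 4 genes were at most 0.64 TPM in any library. The mean over all 6 libraries was 300.5 TPM for Dcn and 0.24 TPM for its neighbour Lum, while both members of the other pairs were near 0.

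Vcan encodes versican, a large proteoglycan that binds hyaluronan. It was at 278, 296 and 220 TPM in CXCL3 libraries, and at 198, 116 and 209.5 TPM in controls (log2 fold change 0.63 ± 0.23, 95% interval 0.11 to 1.16; limma, adjusted p = 0.375). The lowest CXCL3 library, library 3, lay just above the highest control, so the separation of the groups is narrow. Of the hyaluronan synthases, Has2 was at 16.6, 16.7 and 14.1 TPM in CXCL3 libraries and 19.1, 14.03 and 15.7 TPM in controls (-0.04 ± 0.14; adjusted p = 0.905). Has1 was at 6.94, 5.57 and 7.0 TPM in CXCL3 libraries and 6.23, 5.47 and 4.25 TPM in controls (0.25 ± 0.17; adjusted p = 0.504). Neither synthase separated the groups. The cartilage proteoglycan gene Acan was at most 0.08 TPM.

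Basement membrane genes were all expressed except Lama2, which stayed below 0.60 TPM, and none of the 8 tested had an unadjusted p under 0.05. Hspg2, the gene of perlecan, was at 144, 133 and 125 TPM in CXCL3 libraries and 148, 150.1 and 117 TPM in controls (log2 fold change -0.04 ± 0.11; limma, adjusted p = 0.859). Nid1, of the linker protein nidogen 1, was at 142, 135 and 127 TPM in CXCL3 libraries and 150.5, 74.04 and 90.3 TPM in controls (0.42 ± 0.23; adjusted p = 0.472). Here too control 1 was the highest library and controls 2 and 3 the lowest. The laminin chain genes followed with Lamb1 at 119 ± 9.22 TPM with CXCL3 and 104 ± 35.5 TPM in controls, Lamb2 at 19.1 ± 1.56 and 15.2 ± 5.74 TPM, and Lama5 at 13.4 ± 1.76 and 11.97 ± 1.80 TPM. By library, Lamb2 was at 20.05, 17.28 and 19.89 TPM with CXCL3 and 21.85, 12.22 and 11.61 TPM in controls (0.36 ± 0.23; limma, adjusted p = 0.498). Lamc1 was at 50.8, 46.1 and 44.8 TPM in CXCL3 libraries and 53.8, 49.8 and 51.2 TPM in controls (-0.13 ± 0.08; adjusted p = 0.503), and Lama4 averaged 24.5 ± 2.21 and 25.4 ± 3.23 TPM. Nid2 averaged 5.87 ± 0.55 TPM with CXCL3 and 7.11 ± 2.93 TPM in controls, and it overlaps Rtraf on the opposite strand (mean 147 TPM).

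A laminin is built from 1 alpha, 1 beta and 1 gamma chain. Summed over all chain genes of a kind, alpha chains were at 38.8 to 41.7 TPM in CXCL3 libraries and 36.2 to 42.8 TPM in controls. Gamma chains were at 56.9 to 65.6 TPM in CXCL3 libraries and 60.2 to 74.7 TPM in controls. Beta chains were at 128 to 145 TPM in CXCL3 libraries and 92.8 to 167 TPM in controls. In every library the beta chain transcripts were the most abundant and the alpha chain transcripts the least.

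Fn1 was the highest of the adhesive glycoproteins, at 2662, 2621 and 2401 TPM in CXCL3 libraries and 3008, 1880 and 2292 TPM in controls (log2 fold change 0.12 ± 0.16, 95% interval -0.24 to 0.49; limma, adjusted p = 0.699). The CXCL3 values lay between control 1 and the other two controls. Ecm1, of extracellular matrix protein 1, which binds perlecan and other matrix proteins, was at 535, 540 and 499 TPM in CXCL3 libraries and 585, 511 and 496 TPM in controls (-0.01 ± 0.08; adjusted p = 0.942). Matn2, of the adaptor protein matrilin 2, was at 2.89, 3.07 and 2.93 TPM in CXCL3 libraries and 3.72, 2.57 and 3.21 TPM in controls. Vtn, of the plasma adhesion protein vitronectin, was listed at 0 TPM in all 6 libraries, and Mgp was at most 0.52 TPM.

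**Figure D3:**
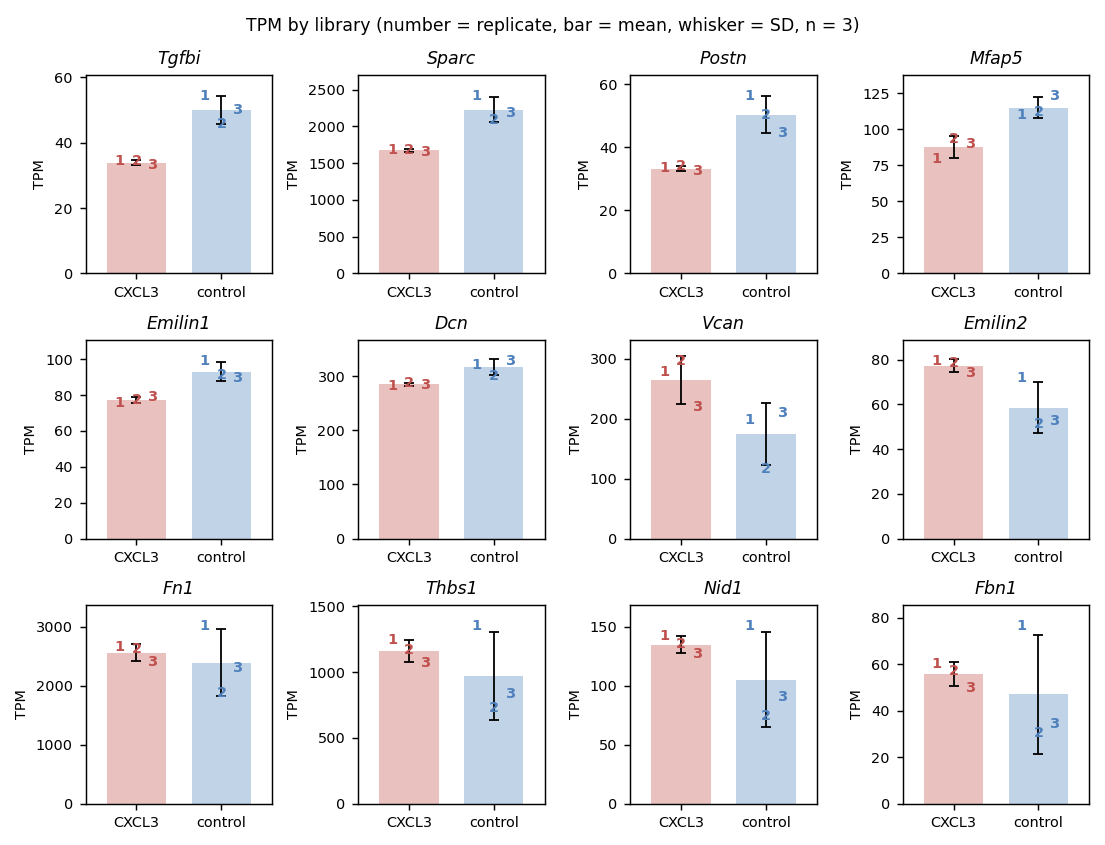
TPM of 12 matrix genes, each digit a library with its replicate number, bars the group means and whiskers the SD (n = 3), with CXCL3 left of control. For Tgfbi, Sparc, Postn, Mfap5, Emilin1 and Dcn every CXCL3 library is below every control, and for Fn1, Thbs1, Nid1 and Fbn1 the CXCL3 libraries lie between control 1 and the other controls.

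By class, the summed level was 4762 ± 127 TPM with CXCL3 and 4563 ± 613 TPM in controls for elastic fibre genes, of which Fbln2 made up 87.0%. It was 3143 ± 121 and 3563 ± 605 TPM for matricellular genes, 3090 ± 162 and 2927 ± 613 TPM for adhesive and other glycoproteins, and 1588 ± 16.9 and 1712 ± 195 TPM for small leucine-rich proteoglycans. For these 4 classes the means differed by less than the SD of the controls. For basement membrane genes the sums were 498 ± 30.5 and 459 ± 94.0 TPM, also less than the SD of the controls apart. The sum of hyaluronan and large proteoglycan genes, 90.9% of it Vcan, was 286.9 ± 40.7 TPM with CXCL3 and 196 ± 52.6 TPM in controls, the only class in which all CXCL3 libraries lay above all controls.

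Ratios between related genes within a library are free of scaling between libraries. They were taken for 8 pairs, chosen after the values of single genes were seen. The ratio of Thbs1 to Thbs2 was 31.3, 30.5 and 30.9 in CXCL3 libraries, and 25.9, 24.2 and 26.1 in controls. The longest transcripts of Thbs1 and Thbs2 have 5848 and 5895 nucleotides and a GC content of 49.9% and 48.4%. The ratio of Nid1 to Nid2 was 22.4, 22.6 and 24.2 in CXCL3 libraries, and 14.7, 16.5 and 13.7 in controls. The longest transcripts of Nid1 and Nid2 have 6091 and 4876 nucleotides and a GC content of 50.4% and 54.6%, so this pair differs more in both. With each library's trend with length and GC content removed, the log2 fold changes of Nid1 and Nid2 were 0.22 and -0.36, against 0.42 and -0.18 before. Those of Thbs1 and Thbs2 were 0.12 and -0.17, against 0.31 and 0.03 before. The ratio of Emilin1 to Emilin2 was 0.95, 0.98 and 1.07 in CXCL3 libraries, and 1.38, 1.79 and 1.70 in controls, and that of Efemp2 to Efemp1 was 13.6 to 15.0 in CXCL3 libraries and 15.8 to 18.3 in controls. In these 4 pairs the groups did not overlap, while the ratios of Lamb1 to Lamb2, Bgn to Dcn, Has2 to Has1 and Lama4 to Lama5 overlapped. For Emilin1 and Emilin2 this follows from the single genes, which lay below and above all controls, and Efemp2 alone also lay below all controls. The share of all gene pairs whose ratios do not overlap was not computed, so the count of 4 has no background. With 3 libraries on each side, the smallest p an exact permutation test can give is 0.1, and no pair was tested.

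**Figure D4:**
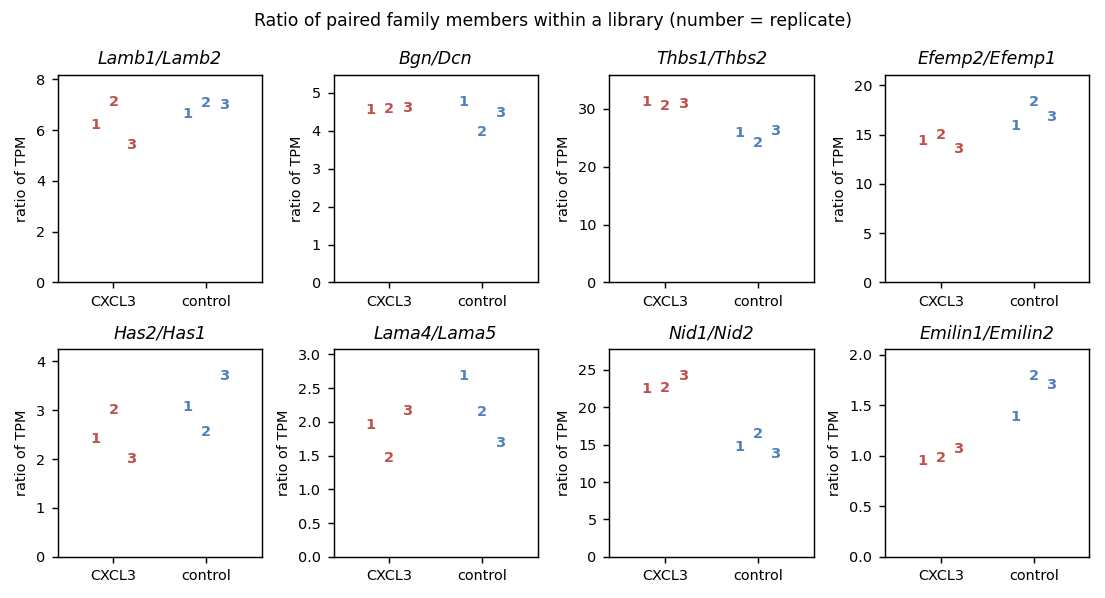
Ratio of TPM of 8 pairs of related matrix genes within each library, each digit a library with its replicate number, CXCL3 left of control. The groups stand apart for Thbs1/Thbs2, Efemp2/Efemp1, Nid1/Nid2 and Emilin1/Emilin2, and overlap for the other pairs.

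Transcript length moved with these values. Across the 35 genes, which are not independent replicates and share the same 6 libraries, the log2 fold change had a Spearman correlation of 0.39 with the length of the longest transcript (0.45 over the 13114 tested genes with a length). For the 35 genes, each library's difference from the 6-library mean correlated with length at 0.58, 0.41 and 0.17 in CXCL3 libraries 1, 2 and 3, and at 0.17, -0.34 and -0.47 in controls 1, 2 and 3. Over the 13114 genes these correlations were 0.40, 0.37 and 0.20 in CXCL3 libraries, and 0.45, -0.50 and -0.48 in controls. Control 1 was the highest of the 6 libraries in 22 of the 35 genes (62.9%, against 37.0% of all genes tested). In 10 of the 35, all 3 CXCL3 values lay below control 1 and above controls 2 and 3 (28.6%, against 22.2% of all genes). Among the 18 genes with a longest transcript of at most 4692 nucleotides, 12 had a negative fold change, and among the 17 longer ones 7 had. Of the 8 genes lower with CXCL3 at an unadjusted p under 0.05, 7 were among the shorter genes and 1, Postn, among the longer. Of those higher, Emilin2 was among the shorter and Vcan among the longer. The same split over all genes is not given. With each library's trend with length and GC content removed, the medians of the shorter and longer genes were -0.13 and -0.17, against -0.05 and 0.10 before.

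**Figure D5:**
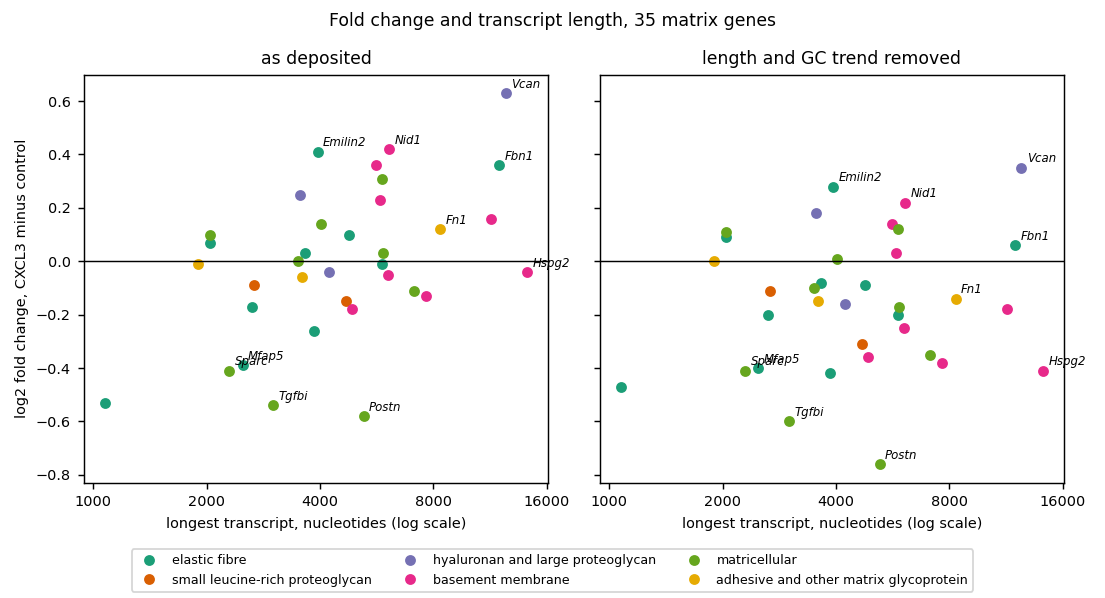
Log2 fold change of the 35 matrix genes tested against the length of the longest transcript (log axis), before (left) and after (right) removal of each library's trend with length and GC content, coloured by class. Tgfbi, Sparc and Postn stay among the lowest points on both sides, while Vcan, Nid1, Fbn1 and Fn1 move down.

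The calls depended on the normalization and on the libraries used and their weights. With the length and GC trend removed, Postn (log2 fold change -0.76, adjusted p = 0.0159), Tgfbi (-0.60, 0.0159) and Sparc (-0.41, 0.0345) passed as lower with CXCL3, where 0.229% of all genes did. Without controls 2 and 3, with control 1 assumed to vary like the CXCL3 libraries, the same 3 passed together with Tnc and Bgn (5 lower and 0 higher, against 0.396% of all genes lower). Quantile normalization called Tgfbi alone (adjusted p = 0.0468, 0.107% of all genes lower). Library weights called 5 lower and 3 higher, against 3.04% and 7.96% of all genes, the 5 being Sparc, Tgfbi, Postn, Mfap5 and Emilin1 and the 3 Emilin2, Nid1 and Thbs1. Without control 1, 6 were lower and 8 higher, against 7.17% and 25.2% of all genes. The 6 were the same 5 with Efemp2, and the 8 were Fbn1, Nid1, Lamb1, Lamb2, Thbs1, Thbs2, Fn1 and Emilin2. Fbn1, Nid1, Lamb1, Lamb2, Thbs1, Thbs2 and Fn1 had a negative fold change without controls 2 and 3, so their direction rests on which controls are used. Tgfbi, Sparc, Postn, Mfap5, Emilin1, Efemp2, Dcn and Mfap2 kept a negative sign, and Vcan and Emilin2 a positive one, in each of the 18 alternative settings in which they were tested. For a library left out this follows from the groups not overlapping, Mfap2 aside.

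Other genes of the same structures were read from the same fit. Of 90 listed, 55 were tested and none passed (limma, adjusted p of 0.05), and at an unadjusted p under 0.05 there were 5 higher and 2 lower (9.09% and 3.64%, against 5.93% and 5.65% of all genes). Their median log2 fold change was 0.12, against 0.07 over all genes. Spp1, the gene of the matricellular protein osteopontin, which macrophages also make, was at 4590, 4533 and 4486 TPM in CXCL3 libraries and 3869, 3554 and 3856 TPM in controls (0.27 ± 0.06; adjusted p = 0.232). Loxl1, of a lysyl oxidase that crosslinks elastin, averaged 66.2 ± 2.21 TPM with CXCL3 and 75.7 ± 4.32 TPM in controls (adjusted p = 0.416). It was the only 1 of the 7 tested partners of elastic fibres with a negative fold change (14.3%, against 37.7% of all genes). The median log2 fold change of these 7 genes was 0.17. Agrn, of the basement membrane proteoglycan agrin, averaged 29.5 ± 1.69 and 22.4 ± 4.47 TPM (adjusted p = 0.375), and Hmmr, of a hyaluronan-binding protein that also acts at the mitotic spindle, 6.37 ± 0.72 and 3.74 ± 0.75 TPM (adjusted p = 0.261). Of genes that build glycosaminoglycan chains 21 of 22 were tested, and Csgalnact1 had the smallest p (2.73 ± 0.25 TPM with CXCL3 and 3.89 ± 1.37 TPM in controls, adjusted p = 0.479). The leucine-rich proteoglycan gene Tsku averaged 87.7 ± 3.47 and 90.4 ± 9.83 TPM (adjusted p = 0.842).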

How the data were processed

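The authors deposited 1 table of TPM, with 1 column per library and 0 columns of other samples, and the columns sum to between 984281 and 986705. Per the submitters' processing notes, the tools were HISAT, RSEM and fastp, listed with no version or role, and the build was GRCm38.p5. For the annotation release, strand setting and filters, nothing is stated. Identifiers were matched to GENCODE M21 (GRCm38), which named 51719 of the 51912 genes, and promoters came from RefSeq on GRCm38.p6.

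Differences were tested with limma 3.58.1 in R 4.3.3 (lmFit, eBayes with trend) on log2(TPM + 1), CXCL3 minus control, two-sided, over the 13139 genes with at least 1 TPM in at least 3 of 6 libraries. On this scale the fold of a low gene comes out too small. The members, classes and lists were chosen with earlier results of these data known. Single libraries' values were given for members that passed, for those with the 3 smallest p, the highest mean and the smallest p of the other sign in each class, and for Fn1, Eln, Fbn1, Dcn, Hspg2, Lamc1, Thbs1, Sparc, Postn and Has2. Of related lists the gene with the smallest p was named. Another 18 settings were tried.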

Additional observations from a re-analysis of the deposited data

How the results depend on the processing

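No matrix gene passed in the settings other than those named next. Matrix genes called numbered 1 with quantile normalization, 3 with the length and GC trend removed, 8 with library weights, 5 without controls 2 and 3, and 0 to 14 with 1 library left out. Related genes called numbered 8 of 55 with library weights, against 11% of all genes tested. With 1 library left out they numbered 0 to 25, the 25 being without control 1, where 32.4% of all genes were called. Over all genes, 21 were called, against 0 with no filter (1928 at an unadjusted p under 0.05), 1 with eBayes without trend, 5 with median-of-ratios scaling, 43 with the length and GC trend removed, 84 without controls 2 and 3, 1446 with library weights, and 0 to 4254 with 1 library left out. The replicate number as a block gave 12, and 0 matrix genes. Whether the numbers pair the samples is not known. Deviations of same-numbered libraries from their group means correlated at 0.12, -0.01 and 0.08. CXCL3 library 1 correlated best with its own number, and CXCL3 libraries 2 and 3 did not. These correlations cannot decide whether the samples were paired, because the libraries' deviations also moved with transcript length. The median log2 fold change of matrix genes was -0.19 without controls 2 and 3, against -0.08 over all genes tested. After removal of the length and GC trend it was -0.15, against 0 over all genes tested. In the fit used above these medians were -0.01 and 0.07. The ratio of the summed TPM of matrix genes was 0.86 without controls 2 and 3, against 1.00 with all libraries.

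The sign turned for Smoc1 with a pseudocount of 0.1 (0.01). It turned with median-of-ratios scaling for Fbln1 (-0.04), Efemp1 (0.00) and Thbs2 (-0.05). With quantile normalization it turned for Fbln1 (-0.09), Fbln2 (0.00), Efemp1 (-0.02), Thbs2 (-0.03), Spon2 (-0.02) and Ecm1 (0.02), and with library weights for Fbln5 (0.02), Has2 (0.05), Hspg2 (0.04), Tnc (0.11), Smoc1 (0.05) and Ecm1 (0.05). With the length and GC trend removed it turned for Fbln1 (-0.08), Fbln2 (-0.09), Lama5 (-0.18), Thbs2 (-0.17) and Fn1 (-0.14). Without controls 2 and 3 it turned for Fbn1 (-0.45), Fbln1 (-0.10), Fbln2 (-0.09), Efemp1 (-0.01), Nid1 (-0.16), Lamb1 (-0.29), Lamb2 (-0.19), Thbs1 (-0.22), Thbs2 (-0.46) and Fn1 (-0.23). With 1 library left out, genes whose sign turned ran from -0.03 to 0.09 (Fbln1), -0.02 to 0.19 (Fbln2), -0.11 to 0.07 (Fbln5), -0.13 to 0.08 (Has2), -0.16 to 0.02 (Hspg2), -0.43 to 0.09 (Nid2), -0.15 to 0.03 (Lama4), -0.26 to 0.20 (Tnc), -0.12 to 0.27 (Thbs2), -0.11 to 0.08 (Smoc1), -0.04 to 0.30 (Fn1), -0.06 to 0.06 (Ecm1) and -0.17 to 0.03 (Matn2). The cause was not tested. TPM keeps no depth, so what depth limits could not be judged.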
